A study of Mus musculus with 7 samples.

Results

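Amino acids enter an activated B cell through a small set of membrane carriers, and 10 genes that encode them are described here in splenic B cells of the mouse: Slc7a5, Slc3a2, Slc1a5, Slc1a4, Slc7a1, Slc7a6, Slc7a11, Slc38a1, Slc38a2 and Slc43a1. They were taken by name, with no threshold on a value, and are 10 of the 46959 features in the table. Cells labelled cKO MED1 (n = 4) were set against cells labelled wildtype (WT, n = 3). All were purified B cells cultured for 4 days with lipopolysaccharide (LPS, 1 µg/mL), a bacterial activator of B cells, and interleukin 4 (IL-4, 20 ng/mL), a cytokine that acts with it on switching to other antibody classes. Med1 is a subunit of Mediator, the complex that connects enhancer-bound factors with RNA polymerase II, and the series title asks what it does for the antibody heavy chain genes.

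What removes Med1, the strain, age and sex of the mice, and whether the 7 libraries came from separate mice are not given in the sources used here. The p-values therefore measure only the spread between these samples, and how much of it is technical is not known. Med1 itself had 2361 ± 186 normalised reads (SD, n = 4) in cKO MED1 libraries and 4379.5 ± 326 (SD, n = 3) in WT libraries, which left 53.9% of the WT level (log2 fold change -0.89, limma adjusted p = 0.000174). Normalised reads are whole reads recovered from the deposited values and scaled to a common effective library of 48019763 reads. Recovered depth was 31937372 to 49603193 reads in cKO MED1 libraries and 54736580 to 61149274 in WT libraries. The B cell markers were high in every library. Their summed level was 276910.0 to 322590.0 normalised reads in cKO MED1 and 338430.0 to 350250.0 in WT, and 5 of the 8 were called lower. Y-linked reads were present in cKO MED1 replicate 3 and in all 3 WT libraries, and absent in cKO MED1 replicates 1, 2 and 4, so that sex and genotype cannot be told apart beyond that 1 library.

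A dividing lymphocyte draws on these carriers for protein synthesis, for nucleotide and glutathione synthesis, and for the leucine and arginine that keep the growth kinase mTORC1 active. The heavy chain Slc3a2 (CD98hc) brings several light chains to the cell surface. Among them are Slc7a5 (LAT1), which exchanges large neutral amino acids such as leucine, Slc7a6 (y+LAT2), which trades cationic for neutral amino acids, and Slc7a11 (xCT), which imports cystine against glutamate. Slc1a5 (ASCT2) and Slc1a4 (ASCT1) exchange small neutral amino acids, Slc1a5 glutamine as well. Slc38a1 (SNAT1) and Slc38a2 (SNAT2) take up glutamine and other neutral amino acids with sodium, Slc7a1 (CAT1) carries arginine and lysine, and Slc43a1 (LAT3) lets leucine and related amino acids pass by facilitated diffusion.

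Amino acid supply and growth signals are known to act on such genes partly through short motifs near their starts. RefSeq promoter windows of 300 bases in GRCm38.p6, from 250 before to 50 after the gene start, were at hand for 7 of the 10. Slc7a5, Slc1a5 and Slc38a1 had no window and were not searched. The amino acid response element core TGATGCAA, bound by ATF4 dimers, was searched on both strands, as was the E-box CACGTG, bound by Myc with Max. The first was found in 0.895% of all 32851 windows and the second in 7.15%. Some genes have more than 1 window, and counted by gene the shares were 1.03% and 8.09% of 27025 genes. The AARE core occurred in 2 of the 7 genes, Slc7a11 and Slc1a4. Shown are the 3 windows with a match to either, from 120 bases before to 9 after the RefSeq start, in the gene's own direction, with the matches in capitals.
Slc7a11, chr3:50443604-50443733, minus strand: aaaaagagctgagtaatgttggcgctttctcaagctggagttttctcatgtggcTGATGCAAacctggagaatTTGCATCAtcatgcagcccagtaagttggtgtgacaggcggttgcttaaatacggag
Slc1a4, chr11:20332704-20332833, minus strand: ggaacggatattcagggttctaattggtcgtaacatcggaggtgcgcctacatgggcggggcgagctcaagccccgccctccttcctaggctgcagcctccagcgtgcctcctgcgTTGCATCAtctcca
Slc43a1, chr2:84840203-84840332, plus strand: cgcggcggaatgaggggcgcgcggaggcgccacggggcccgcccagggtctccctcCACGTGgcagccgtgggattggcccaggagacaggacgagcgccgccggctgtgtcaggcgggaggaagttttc

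Slc7a11 had 2 copies of the AARE core, at -66 to -59 on the gene's strand and at -47 to -40 on the opposite strand, with 0 as the RefSeq start. In Slc1a4 the single copy lay at -4 to 3 on the opposite strand. The E-box of Slc43a1 lay at -64 to -59, and since the RefSeq start, 84840323, is inside the GENCODE gene, which begins at 84838850, the window covers one of its starts. The antioxidant response core TGACNNNGC, in 12.4% of windows and 14.0% of genes, occurred in Slc43a1, Slc7a1, Slc7a6 and Slc38a2, where it overlapped neither of the other motifs. TATAAA, in 13.6% of windows and 15.7% of genes, occurred in Slc43a1 at 2 places and in 1 window of Slc7a1. In Slc3a2, where no match was found, the RefSeq start, 8713897, also lies inside the GENCODE gene, which on the minus strand begins at 8723369. These are matches of letters, and nothing about binding was measured.

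Of the 10 genes, 4 were lower in cKO MED1 cells and 0 higher. The leucine carrier Slc43a1 was at 50.5% of its WT level, the arginine carrier Slc7a1 at 70.4%, the glutamine carrier Slc38a1 at 77.0% and the exchanger Slc7a6 at 83.7%. Slc7a5 and Slc3a2, which together form LAT1, did not pass the test, nor did Slc1a5, Slc1a4, Slc38a2 and Slc7a11. All 10 were abundant enough to be tested, by limma on log2(normalised reads + 1) with Benjamini-Hochberg adjustment over 18062 genes at a threshold of 0.05. Fewer cells of a type and less RNA per cell cannot be told apart in these bulk libraries. By the same test 28.0% of all genes were called, 14.6% lower and 13.4% higher.

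The share of calls differed with level. Among the 6021 genes with the highest mean level, where 7 of the 10 lie (all but Slc1a4, Slc7a11 and Slc43a1), 27.8% were called lower and 5.6% higher. Among the 6020 genes of middle level, where the other three lie, 15.2% were called lower and 13.0% higher. Among the 6021 genes of lowest level, with none of the 10, the shares were 0.93% lower and 21.6% higher. Against these shares, nothing particular to the transporters is read from 4 calls in 10. The median log2 fold change of the 10 was -0.26, beside 0.04 over all tested genes and -0.15 over the 6021 highest. In 5 of the 10, every cKO MED1 library lay below every WT library. That held for 19.8% of all tested genes, for 36.6% of the 6021 highest and for 20.8% of the 6020 in the middle, while 19.3% of all tested genes had every cKO MED1 library above every WT library.

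**Figure D1:**
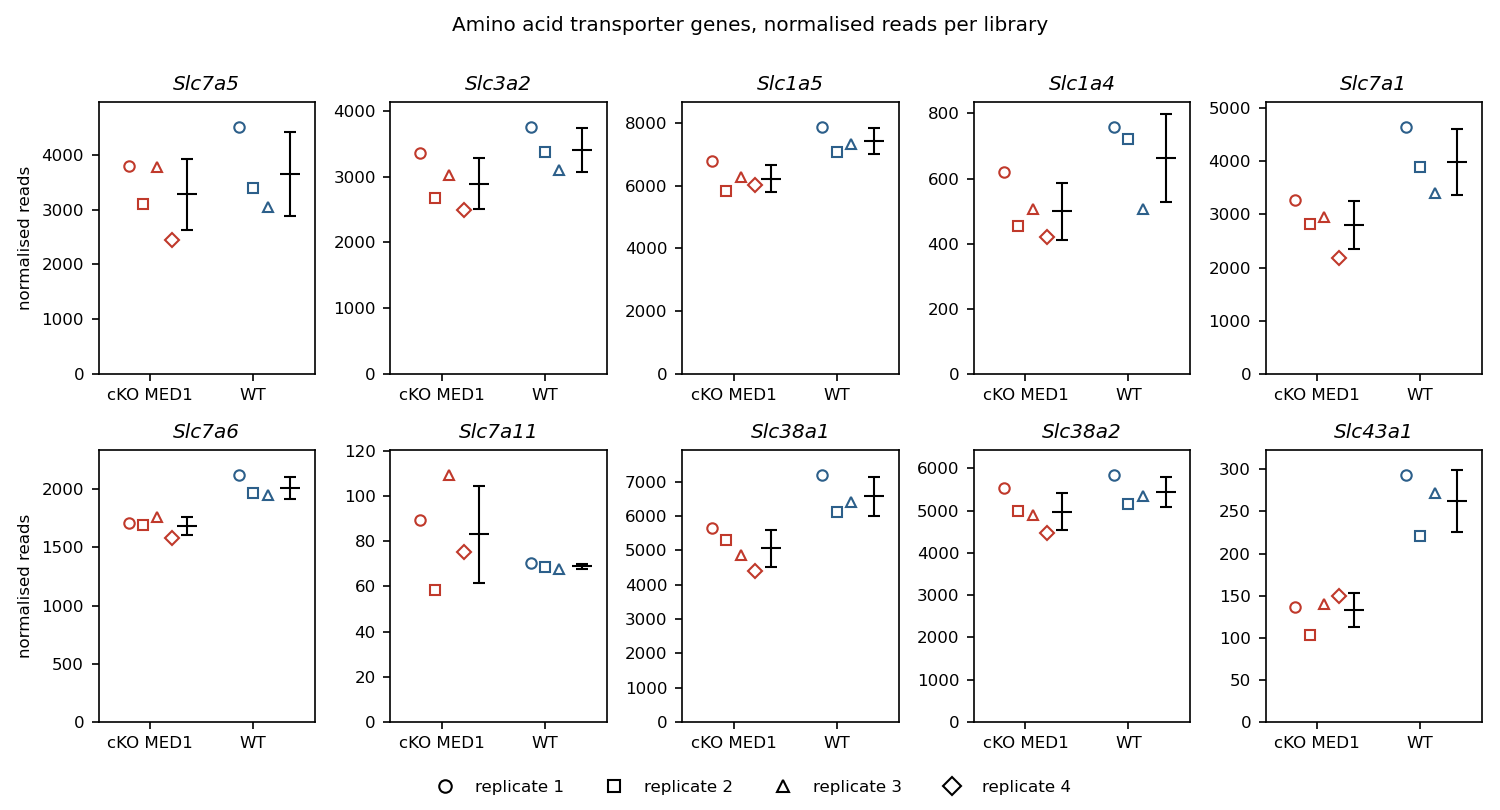
Normalised reads of each transporter gene (y axis, linear from 0) in the 4 cKO MED1 and 3 WT libraries, 1 open symbol per library with its shape giving the replicate, and the mean ± SD in black to the right. Slc43a1, Slc7a1, Slc38a1, Slc7a6 and Slc1a5 show groups that do not overlap, and WT replicate 1 is the highest WT library in all 10 panels.

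Slc43a1 showed the widest gap of the 10. It had 137, 103, 139.6 and 150.1 normalised reads in cKO MED1 replicates 1 to 4, against 293, 221 and 272 in WT replicates 1 to 3. The groups were well apart, the highest cKO MED1 library lying below the lowest WT library. On average cKO MED1 libraries held 132 ± 20.2 (SD, n = 4) and WT libraries 262 ± 37.1 (SD, n = 3), a log2 fold change of -0.98 with SE 0.16 (95% interval -1.34 to -0.63, limma adjusted p = 0.00274). Slc43a1 (ENSMUSG00000027075.16) lies on chromosome 2 from 84838850 to 84863594, plus strand, in GRCm38, as counted over all of its exons.

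Slc43a1 rests on fewer reads than most of the others, 82 to 106 in cKO MED1 libraries and 271 to 426 in WT libraries. Its call held in more alternatives than that of any other transporter, 20 of 21, with log2 fold changes of -1.23 to -0.84. The exception was the fit with the library's sex as a covariate, at -0.89 (limma adjusted p = 0.125). That fit rests on a single cKO MED1 library with Y-linked reads, called 228 genes in all, and called 0 of the 10 transporters.

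Slc7a1, the main carrier of arginine and lysine, had 3268, 2816, 2945 and 2183 normalised reads in cKO MED1 replicates 1 to 4, against 4649, 3894 and 3408 in WT replicates 1 to 3. All cKO MED1 libraries lay below all WT libraries, replicate 1 of cKO MED1 coming within a small margin of replicate 3 of WT. Group means were 2803 ± 455 in cKO MED1 (SD, n = 4) and 3984 ± 626 in WT (SD, n = 3), a log2 fold change of -0.51 with SE 0.14 (95% interval -0.82 to -0.20, limma adjusted p = 0.0239). The call ended without cKO MED1 replicate 4 (-0.37, limma adjusted p = 0.0538) and without WT replicate 1 (-0.44, limma adjusted p = 0.0884). Slc7a1 (ENSMUSG00000041313.14) lies on chromosome 5 from 148327410 to 148399904, minus strand.

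Arginine taken up by this carrier feeds, among other routes, polyamine synthesis. Of 13 tested genes of arginine and polyamine metabolism, 4 were lower in cKO MED1 and 1 higher, and the median log2 fold change was -0.13. Since 10 of the 13 belong to the 6021 highest genes, of which 27.8% were called lower, this count is near the share at their level. Odc1, which makes putrescine from ornithine, had 4826 ± 737 normalised reads in cKO MED1 and 8719 ± 1479 in WT (log2 fold change -0.85 with SE 0.14, limma adjusted p = 0.0028). Spermidine synthase Srm fell by 0.87 in log2 units (limma adjusted p = 0.00607) and argininosuccinate synthase Ass1 by 0.80 (limma adjusted p = 0.000426). Sat1, which acetylates polyamines for export, rose by 0.47 (limma adjusted p = 0.0127). Over the 21 alternatives 1 to 5 were lower and 0 to 1 higher, with 4 lower and 0 higher without cKO MED1 replicates 3 and 4.

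Of the sodium-coupled pair Slc38a1 and Slc38a2, neighbours on chromosome 15, the first was called lower and the second was not. Slc38a1 had 5646, 5307, 4874 and 4396 normalised reads in cKO MED1 replicates 1 to 4, against 7189, 6100.5 and 6413 in WT replicates 1 to 3. The groups did not overlap. On average cKO MED1 libraries held 5056 ± 542 (SD, n = 4) and WT libraries 6568 ± 561 (SD, n = 3), a log2 fold change of -0.38 with SE 0.11 (95% interval -0.61 to -0.15, limma adjusted p = 0.0241). Without cKO MED1 replicate 3 the adjusted p was 0.0526, without cKO MED1 replicate 4 it was 0.0592, and without WT replicate 1 it was 0.101. Slc38a1 (ENSMUSG00000023169.15) spans 96571418 to 96642913 on the minus strand.

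Slc38a2, known in other cells as the SNAT that rises when amino acids run short, had 5538, 4983, 4908.5 and 4471 normalised reads in cKO MED1 replicates 1 to 4, against 5843, 5155 and 5354 in WT replicates 1 to 3. Here the groups overlapped, since cKO MED1 replicate 1 exceeded WT replicates 2 and 3. The log2 fold change of -0.13 (SE 0.10, 95% interval -0.34 to 0.07) did not pass (limma adjusted p = 0.296). Slc38a2 (ENSMUSG00000022462.7) spans 96687392 to 96699730 on the minus strand.

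The ratio of Slc38a1 to Slc38a2 reads, which does not depend on the scaling of libraries, was 1.02, 1.07, 0.993 and 0.983 in cKO MED1 replicates 1 to 4, against 1.23, 1.18 and 1.198 in WT replicates 1 to 3. The groups were fully apart and each was narrow, at 1.015 ± 0.0366 (SD, n = 4) in cKO MED1 and 1.204 ± 0.0240 (SD, n = 3) in WT. The log2 difference was -0.25, and an exact permutation test, two-sided over the 35 possible assignments of libraries, gave p = 0.0286, the smallest this design can give. Adjusted over the 3 partner ratios tested, the exact permutation p was 0.0857, so the ratio does not pass 0.05 after adjustment, and 1 ratio alone could not. The difference was -0.27 to -0.23 with any 1 library left out.

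Slc7a6, the light chain that exports arginine or lysine in trade for glutamine or leucine, had 1707, 1690.2, 1758 and 1578 normalised reads in cKO MED1 replicates 1 to 4, against 2121, 1968 and 1947 in WT replicates 1 to 3. The replicates of each group lay close together, and the groups did not overlap. Group means were 1683 ± 76.2 in cKO MED1 (SD, n = 4) and 2012 ± 94.97 in WT (SD, n = 3), a log2 fold change of -0.26 with SE 0.08 (95% interval -0.44 to -0.08, limma adjusted p = 0.0379). It is the smallest of the 4 differences called. The call held in 12 of 21 alternatives, and ended without each single library except cKO MED1 replicates 1 and 3, with log2 fold changes of -0.33 to -0.20 and limma adjusted p from 0.0507 to 0.134 in those 5 fits. Slc7a6 (ENSMUSG00000031904.5) lies on chromosome 8 from 106168857 to 106198706, plus strand.

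**Figure D2:**
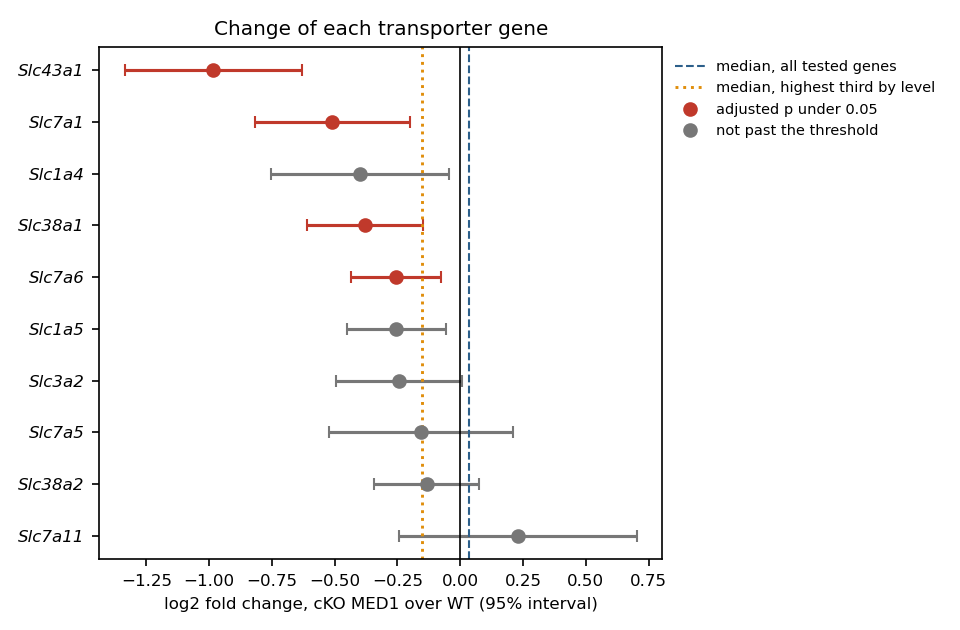
Log2 fold change of each transporter gene, cKO MED1 over WT, with its 95% interval (x axis), the genes ordered from Slc7a11 at the bottom to Slc43a1 at the top. Red points passed the adjusted p threshold, grey points did not, and the lines mark 0, the median of all tested genes (0.04) and the median of the 6021 highest genes (-0.15).

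Neither subunit of LAT1 passed the test. The light chain Slc7a5 had 3789, 3097, 3779.8 and 2443 normalised reads in cKO MED1 replicates 1 to 4, against 4512, 3393 and 3040.4 in WT replicates 1 to 3. The groups overlapped broadly, with 2 cKO MED1 libraries above WT replicates 2 and 3. On average cKO MED1 libraries held 3277 ± 644 (SD, n = 4) and WT libraries 3649 ± 769 (SD, n = 3), and the log2 fold change of -0.16 (SE 0.17) had a 95% interval of -0.52 to 0.21 (limma adjusted p = 0.49). The interval leaves room for a fall of the size seen in Slc7a1 or Slc38a1. Slc7a5 (ENSMUSG00000040010.10) lies on chromosome 8 from 121881150 to 121907694, minus strand, and passed in 0 of 21 alternatives. Its log2 fold change was -0.00083 without cKO MED1 replicate 4, -0.04 without WT replicate 1 and -0.33 without WT replicate 3, and 0.07 with sex as a covariate.

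The heavy chain Slc3a2 had 3369, 2680.5, 3029 and 2493 normalised reads in cKO MED1 replicates 1 to 4, against 3759.9, 3377.5 and 3099 in WT replicates 1 to 3. Only cKO MED1 replicate 1 reached into the WT range. Group means were 2893 ± 387 in cKO MED1 (SD, n = 4) and 3412 ± 332 in WT (SD, n = 3), a log2 fold change of -0.24 with SE 0.11 (95% interval -0.49 to 0.01, limma adjusted p = 0.124). Slc3a2 (ENSMUSG00000010095.13) lies on chromosome 19 from 8706882 to 8723369, minus strand. Without cKO MED1 replicate 1 it passed, at -0.33 (limma adjusted p = 0.0338).

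The balance of light and heavy chain was compared as a ratio, which is free of library scaling. The ratio of Slc7a5 to Slc3a2 reads was 1.12, 1.16, 1.248 and 0.98 in cKO MED1 replicates 1 to 4, against 1.2, 1.005 and 0.981 in WT replicates 1 to 3, and the groups overlapped (log2 difference 0.09, adjusted p = 0.486 in the exact permutation test). Per kb of exon, the known light chains Slc7a5, Slc7a6, Slc7a7, Slc7a8, Slc7a10 and Slc7a11 together stood at 1.63, 1.78, 1.81 and 1.73 times Slc3a2 in cKO MED1 replicates 1 to 4, against 1.67, 1.49 and 1.54 times in WT replicates 1 to 3. By this measure, which depends on the exon lengths used, Slc7a5 supplied 54.1% to 65.7% of that light chain RNA in cKO MED1 libraries. In WT libraries it supplied 60.5% to 68.5%, and the ranges overlap. Slc7a6 supplied 24.0% to 28.3% in cKO MED1 libraries and 26.1% to 31.4% in WT libraries.

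Slc7a11, the cystine carrier and another light chain, was barely present. It had 89.4, 58.5, 109 and 75.0 normalised reads in cKO MED1 replicates 1 to 4, against 70.2, 68.5 and 67.9 in WT replicates 1 to 3, from 41 to 83 recovered reads in cKO MED1 and 84 to 102 in WT. The 3 WT libraries lay almost on one value, while the cKO MED1 libraries fell on both sides of it. On average cKO MED1 libraries held 83.1 ± 21.6 (SD, n = 4) and WT libraries 68.9 ± 1.22 (SD, n = 3), a log2 fold change of 0.23 with SE 0.22 (95% interval -0.24 to 0.70, limma adjusted p = 0.432) that became -0.01 when libraries were scaled by total reads. Slc7a11 (ENSMUSG00000027737.10) lies on chromosome 3 from 49892526 to 50443614, minus strand. It was the only one of the 10 with a positive log2 fold change in the fit as reported.

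Genes that B cells do not use also had reads. The 1836 olfactory, vomeronasal and trace amine receptor genes had 0.241, 0.335, 0.615 and 1.04 normalised reads per kb in cKO MED1 replicates 1 to 4, against 0.117, 0.246 and 0.199 in WT replicates 1 to 3. Over the exons of Slc7a11 this level amounts to 3.75%, 7.97%, 7.83% and 19.3% of its reads in cKO MED1 replicates 1 to 4, against 2.32%, 4.99% and 4.07% in WT replicates 1 to 3. In Slc43a1 it amounts to 1.01% to 3.97% in cKO MED1 libraries and 0.228% to 0.635% in WT libraries, and in each of the other 8 genes to at most 0.9754%. With the background subtracted, the same 4 transporters were called lower.

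The small neutral exchangers Slc1a5 and Slc1a4 lay near the threshold. Slc1a5, a main glutamine carrier of dividing cells, had 6802, 5828, 6268 and 6034 normalised reads in cKO MED1 replicates 1 to 4, against 7882, 7076 and 7336 in WT replicates 1 to 3. Every cKO MED1 library was below every WT library, yet the difference did not pass. Group means were 6233 ± 419.9 in cKO MED1 (SD, n = 4) and 7431 ± 412 in WT (SD, n = 3), a log2 fold change of -0.25 with SE 0.09 (95% interval -0.45 to -0.06, limma adjusted p = 0.0534). It passed in 7 of 21 alternatives, among them edgeR's quasi-likelihood test (adjusted p = 0.0498) and DESeq2 (adjusted p = 0.0174). Slc1a5 (ENSMUSG00000001918.17) lies on chromosome 7 from 16781340 to 16798274, plus strand.

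Slc1a4, which carries serine, alanine and cysteine, had 619, 453, 507 and 419 normalised reads in cKO MED1 replicates 1 to 4, against 759, 721 and 508 in WT replicates 1 to 3. WT replicate 3 fell within the cKO MED1 range, and the other two WT libraries stood above it. On average cKO MED1 libraries held 499.7 ± 87.6 (SD, n = 4) and WT libraries 663 ± 135 (SD, n = 3), a log2 fold change of -0.40 with SE 0.16 (95% interval -0.76 to -0.05, limma adjusted p = 0.0818). Without WT replicate 3 the log2 fold change was -0.63 (limma adjusted p = 0.0147), and without cKO MED1 replicate 1 it was -0.52 (limma adjusted p = 0.0284). The ratio of Slc1a4 to Slc1a5 overlapped between groups, at 0.0695 to 0.091 in cKO MED1 and 0.0692 to 0.102 in WT (log2 difference -0.15, adjusted p = 0.486 in the exact permutation test). Slc1a4 (ENSMUSG00000020142.12) lies on chromosome 11 from 20302180 to 20332713, minus strand.

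Levels can be compared between genes only per length, here as normalised reads per kb of exon. The length joins the exons of all annotated isoforms, from 3.529 kb in Slc3a2 to 17.236 kb in Slc38a1. Which isoforms the cells express was not tested, so the order holds for this length only. In WT libraries Slc38a1 had more reads than Slc38a2 (6568 against 5451) but fewer per kb. On this scale Slc1a5 was the highest of the 10, at 1494 ± 101 in cKO MED1 (SD, n = 4) and 1781 ± 98.6 in WT (SD, n = 3). Slc7a5 followed with 884 ± 174 in cKO MED1 and 984 ± 207 in WT, and Slc3a2 with 819.7 ± 109.8 in cKO MED1 and 967 ± 94.1 in WT. These 3, the glutamine exchanger and the subunits of LAT1, headed the set. Slc38a2 had 563 ± 49.6 in cKO MED1 and 617 ± 40.1 in WT, and Slc7a6 had 368 ± 16.7 in cKO MED1 and 440.3 ± 20.8 in WT. Slc38a1 had 293 ± 31.4 in cKO MED1 and 381 ± 32.5 in WT, and Slc7a1 had 243 ± 39.5 in cKO MED1 and 345.5 ± 54.3 in WT. The remaining genes lay far lower. Slc1a4 had 127 ± 22.3 in cKO MED1 and 169 ± 34.5 in WT, Slc43a1 had 23.2 ± 3.54 in cKO MED1 and 45.9 ± 6.49 in WT, and Slc7a11 had 5.97 ± 1.55 in cKO MED1 and 4.95 ± 0.0873 in WT. The order was the same in both groups. Neighbours in it overlapped in range only for Slc7a5 with Slc3a2 and for Slc38a1 with Slc7a1, in both groups.

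**Figure D3:**
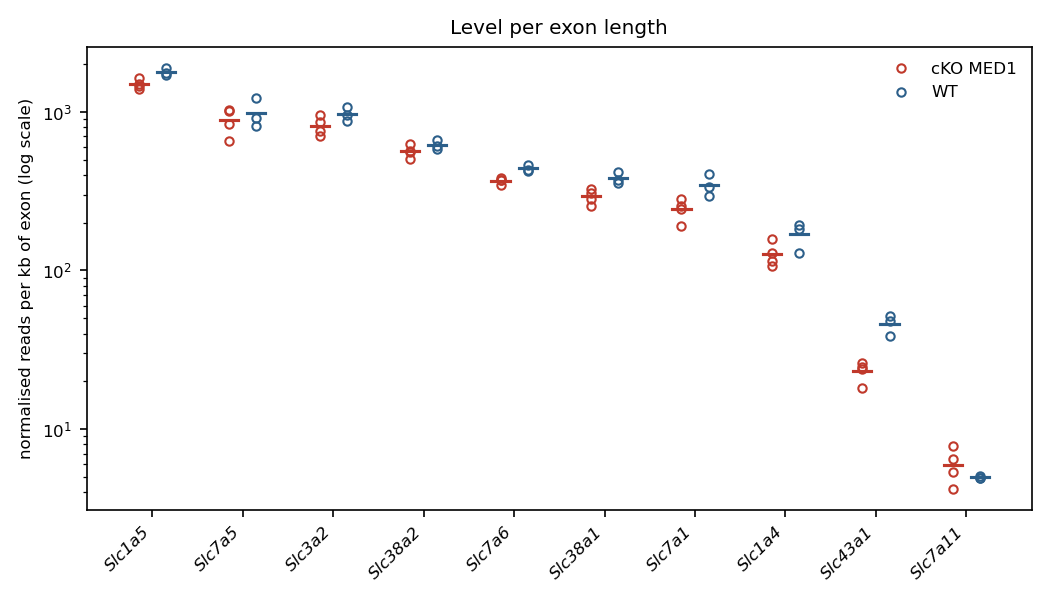
Normalised reads per kb of exon (y axis, log scale) of each transporter gene, ordered by its WT mean, with cKO MED1 libraries in red on the left and WT libraries in blue on the right of each gene. Points are libraries and short lines their means, and the levels run from 1494 in cKO MED1 and 1781 in WT for Slc1a5 to 5.97 in cKO MED1 and 4.95 in WT for Slc7a11.

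Within each group, certain libraries stood at the same end for most of these genes. WT replicate 1 was the highest WT library for 10 of the 10 genes. Among cKO MED1 libraries, replicate 1 was the highest for 7 and replicate 4 the lowest for 7, namely Slc7a5, Slc3a2, Slc1a4, Slc7a1, Slc7a6, Slc38a1 and Slc38a2. Summed per kb over the 10, the level was 5406, 4615, 5019 and 4245 in cKO MED1 replicates 1 to 4, against 6366.5, 5501 and 5337 in WT replicates 1 to 3. The WT sum thus ran from just under that of cKO MED1 replicate 1 upwards. WT replicate 1 and cKO MED1 replicate 4 also mark the ends of the whole data set. The third, cKO MED1 replicate 1, is an end only of its own group, on the side of WT. On the first principal component, which holds 71.5% of the variance, cKO MED1 replicates 1 to 4 stood at -3.34, -19.3, -59.1 and -106, and WT replicates 1 to 3 at 100.4, 42.2 and 45.2. Without cKO MED1 replicates 3 and 4, which have the most reads in silent receptor genes, 1 of the 10 transporters was called (Slc43a1), as it was without cKO MED1 replicate 4 alone and without WT replicate 1 alone.

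Scaling also bears on the calls. With the authors' size factors the median of all tested genes moved to -0.10, with total reads to -0.21, and with TMM factors over all features to -0.12. Slc1a5 and Slc1a4 then joined the 4 called lower under each of these scalings, and Slc3a2 under the last pair, giving 6, 7 and 7 transporters. Of all tested genes 19.8%, 24.2% and 24.2% were then called lower, beside 14.6% as reported. Of all calls 37.3%, 31.8% and 31.9% were then higher in cKO MED1, beside 47.8% as reported. The median log2 fold change of the 10 itself was -0.39, -0.50 and -0.41 under these scalings, which shift all genes nearly alike.

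**Figure D4:**
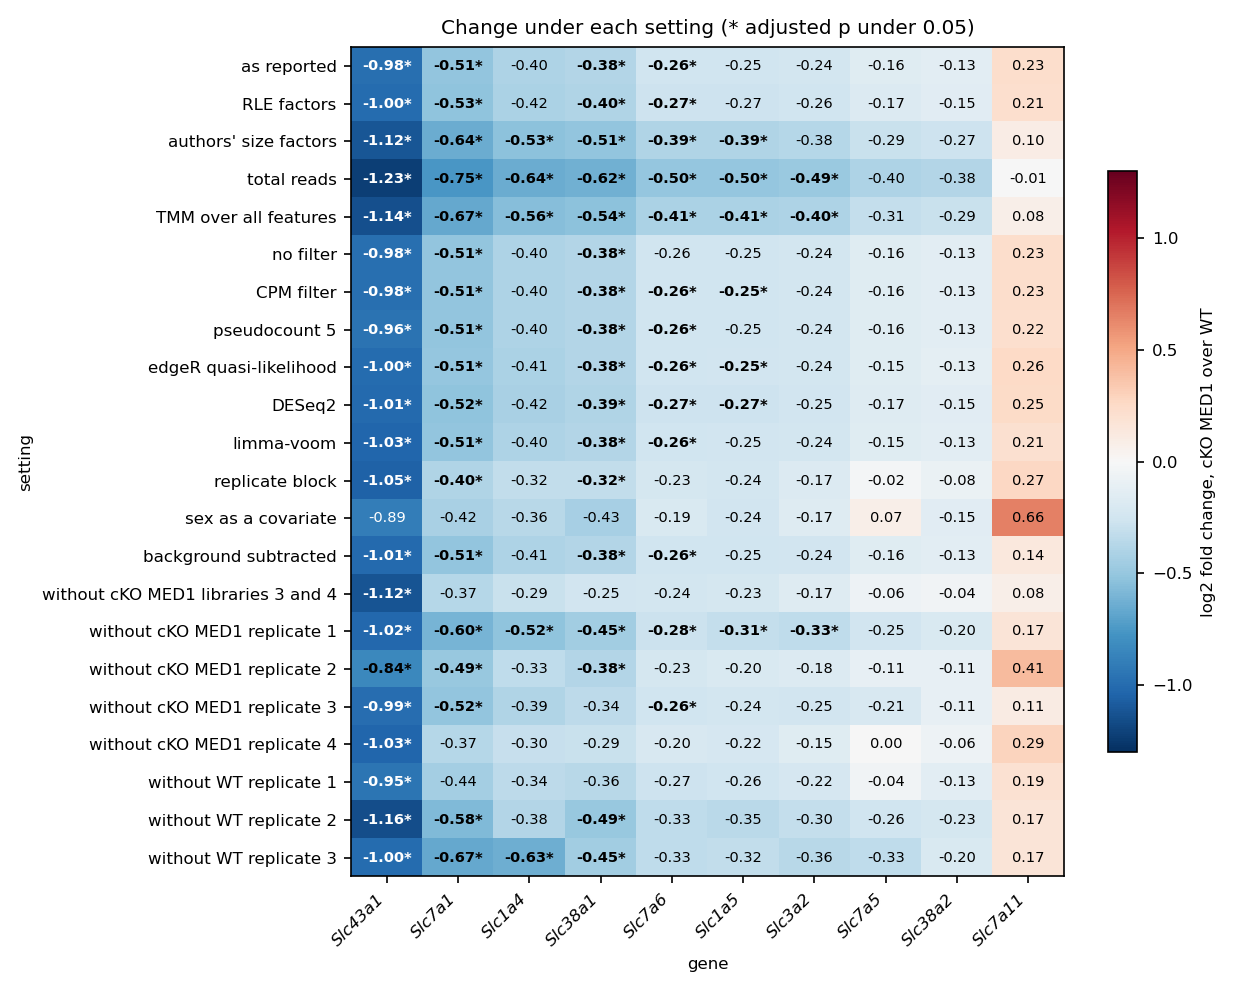
Log2 fold change, cKO MED1 over WT, of each transporter gene (columns, from the lowest on the left) under each way of processing the data (rows), in blue where negative and red where positive, with an asterisk where the adjusted p was under 0.05. Slc43a1 passes in every row but that with sex as a covariate, and Slc7a5, Slc38a2 and Slc7a11 pass in none.

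Other tested genes ran alongside some of these. Likeness was measured as the root mean square difference, over the 7 libraries, of log2 values set relative to each gene's WT mean, among 8482 genes at a mean CPM of 5 or more. Nearest to Slc7a5 were Bloc1s4 at 0.103, Slc7a3 at 0.120, Ankle1 and Zbed3 at 0.127 and Eif5b at 0.130. Slc7a3 is another cationic amino acid carrier (CAT3), and its own log2 fold change of -0.25 did not pass (limma adjusted p = 0.329). The heavy chain Slc3a2 ranked 14 by this measure, at 0.143. The other transporters ranked against Slc7a5 lay further off, from rank 189 for Slc38a2 to rank 3945 for Slc7a1. Nearest to Slc7a11 were Rnf24 at 0.144, Tex9 at 0.172, Ano8 at 0.175, Slc12a9 at 0.177 and Alad at 0.182. The transporters ranked against Slc7a11 lay from rank 3233 for Slc38a2 to rank 7605 for Slc7a1.

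The remaining plasma membrane carriers of amino acids moved in both directions. Of 29 such genes 19 were tested, of which 2 were lower and 7 higher in cKO MED1, with a median log2 fold change of 0.79. Of the 19, 12 belong to the 6021 genes of lowest level, where 21.6% were called higher. The glutamate carrier Slc1a2 was the largest fall, with 298, 314, 316 and 304 normalised reads in cKO MED1 replicates 1 to 4, against 708, 664 and 801 in WT replicates 1 to 3 (log2 fold change -1.23 with SE 0.10, limma adjusted p = 3.9e-05). The taurine carrier Slc6a6 fell by 0.48 (limma adjusted p = 0.013). Slc7a7 (y+LAT1), a light chain of Slc3a2 with a transport like that of Slc7a6, was higher, with 493, 455, 446 and 664 normalised reads in cKO MED1 replicates 1 to 4, against 295, 258 and 335 in WT replicates 1 to 3. The groups did not overlap (log2 fold change 0.79 with SE 0.15, limma adjusted p = 0.00546).

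The other 6 genes called higher, Slc1a3, Slc6a17, Slc6a20a, Slc7a9, Slc38a3 and Slc38a5, are scarcely expressed. The glutamine carrier Slc38a5 (SNAT5) was the largest rise, with 16.3, 10.7, 21.1 and 67.7 normalised reads in cKO MED1 replicates 1 to 4, against 0, 4.08 and 1.597 in WT replicates 1 to 3 (limma adjusted p = 0.0117). The silent receptor level over the exons of Slc38a5 makes up 3.32% to 6.997% of its reads in the cKO MED1 libraries. It makes up 13.5% in WT replicate 2 and 27.9% in WT replicate 3, and WT replicate 1 had 0 reads. For Slc1a3 that level makes up 16.9% to 29.3% in cKO MED1 libraries and 35.4% to 48.4% in WT libraries. Over the 21 alternatives 0 to 8 of the list were called higher and 1 to 4 lower. Without cKO MED1 replicates 3 and 4, 1 was called higher and 1 lower, and with sex as a covariate 0 were higher and 1 lower.

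The next lists hold genes that read or use the amino acids these carriers bring in. Of all tested genes 14.6% were called lower and 13.4% higher. Among the 6021 highest, 27.8% were called lower and 5.6% higher. In the chain from amino acids to mTORC1, 4 of 29 tested genes were lower and 1 higher, with a median log2 fold change of -0.13. Of the 29, 19 belong to the 6021 highest genes. Wdr59, a part of the GATOR2 complex, fell by 0.62 (limma adjusted p = 0.00442), and the leucine sensor family member Sesn1 by 0.59 (limma adjusted p = 0.00527). Mlst8, a subunit of mTORC1, fell by 0.41 (limma adjusted p = 0.0151), while the Rag GTPase gene Rragd rose by 0.60 (limma adjusted p = 0.0162). Over the 21 alternatives 1 to 7 were lower and 0 to 1 higher, with 2 lower and 0 higher without cKO MED1 replicates 3 and 4.

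The amino acid response through ATF4, the factor that binds the motif shown for Slc7a11 and Slc1a4, depended on scaling and on single libraries. Of 22 genes, 13 of them among the 6021 highest, 5 were lower and 2 higher, with a median log2 fold change of -0.24. The lower ones included the serine and glycine synthesis genes Phgdh, with 5042 ± 755 normalised reads in cKO MED1 and 7505 ± 1542 in WT (log2 fold change -0.57 with SE 0.15, limma adjusted p = 0.0223), Psat1 (-0.56, limma adjusted p = 0.019) and Shmt2 (-0.57, limma adjusted p = 0.0211). Ddit3 (CHOP), a stress factor, rose by 0.42 (limma adjusted p = 0.0151). With the authors' size factors 10 were lower and 0 higher, as was so without WT replicate 3. With total reads, or with TMM factors over all features, 11 were lower and 0 higher. Without cKO MED1 replicate 4 the count was 0 lower and 1 higher, without WT replicate 1 it was 1 lower and 0 higher, and without cKO MED1 replicates 3 and 4 it was 3 lower and 1 higher. The share of all tested genes called lower moved as well. It was 19.8% with the authors' size factors, 24.2% with total reads or TMM factors over all features, and 13.1% without WT replicate 3. Without cKO MED1 replicate 4 it was 8.9%, without WT replicate 1 5.25%, and without cKO MED1 replicates 3 and 4 7.34%.

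Of 16 genes for glutathione and redox balance downstream of cystine uptake, 3 were lower and 0 higher, with a median log2 fold change of -0.17. Glutathione reductase Gsr fell by 0.68 (limma adjusted p = 0.0135), thioredoxin reductase Txnrd1 by 0.51 (limma adjusted p = 0.022) and Keap1, which holds the antioxidant factor Nrf2 in check, by 0.30 (limma adjusted p = 0.0274). Gpx4, which detoxifies lipid peroxides, had a log2 fold change of 0.43 and did not pass (limma adjusted p = 0.0707). Of 15 genes of glutamine and branched-chain amino acid metabolism, 4 were lower and 0 higher, with a median of -0.15. They were Got1 (-0.34), Got2 (-0.33), Bckdha (-0.37) and Dld (-0.34), with limma adjusted p from 0.0267 to 0.0441. Without cKO MED1 replicates 3 and 4, 0 genes of either list were called. With the authors' size factors, total reads and TMM factors over all features, the redox list had 5, 7 and 6 genes lower and the glutamine list 6, 6 and 7. DESeq2 called 2 redox genes higher, and with the replicate block 0 genes of the glutamine list were called. Of the tested genes, 7 of the redox list and 9 of the glutamine list are among the 6021 highest.

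**Figure D5:**
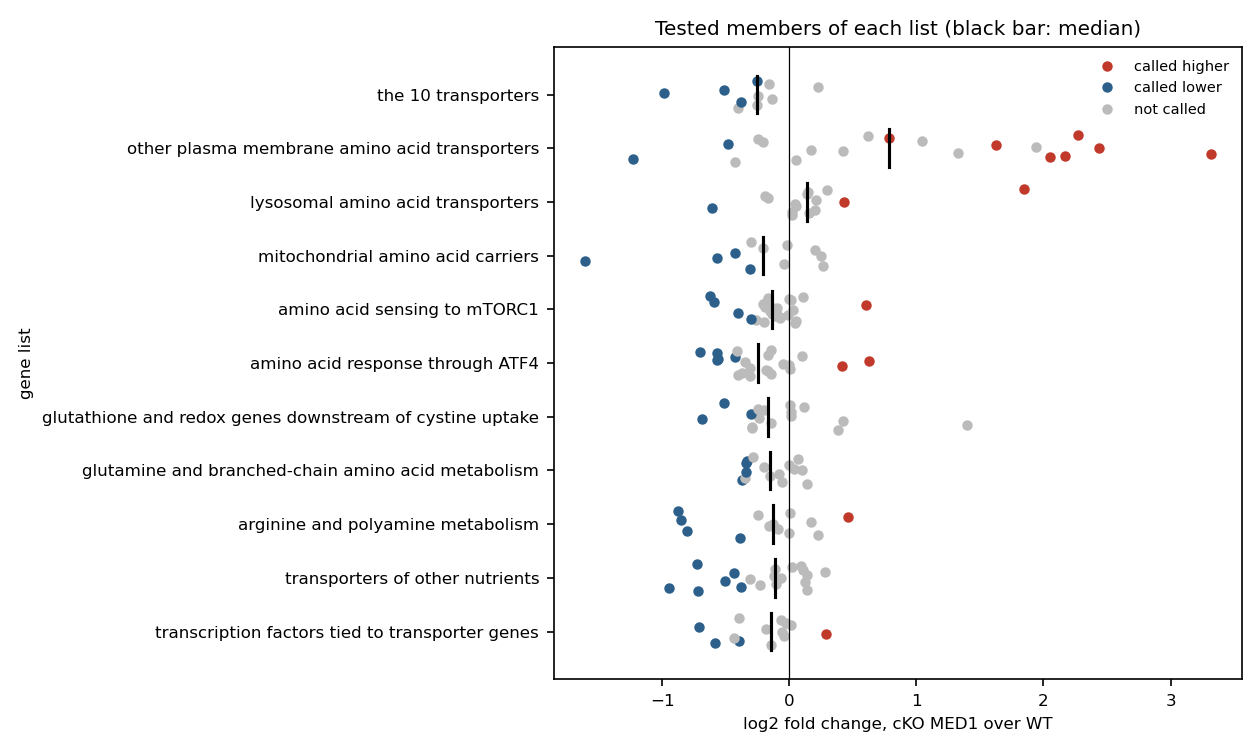
Log2 fold change, cKO MED1 over WT (x axis), of every tested gene in the 10 transporters and in each comparison list (rows), red where called higher, blue where called lower and grey where not called, with the list's median as a black bar. The 10 transporters have a median of -0.26, and the other plasma membrane carriers of 0.79, most of whose red points are genes with few reads.

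Markers of other cell types were present, at summed levels far below that of the B cell markers. None of the lists had a gene at 0 in every library, although among others Cd3e, Cd8a, Cd14, S100a8, S100a9, Siglech and Pf4 were at 0 in some. The summed level of T cell markers was 1852 to 3037 normalised reads in cKO MED1 and 1273 to 2216 in WT, and 1 of the 8 tested was called higher. That of dendritic cells was 3519 to 4634 in cKO MED1 and 2384 to 3339 in WT, with 2 of the 4 tested called higher. Macrophage and monocyte markers summed to 591 to 858 in cKO MED1 and 438 to 715 in WT, with 0 of the 7 tested called. Neutrophil markers summed to 164 to 264 in cKO MED1 and 107 to 135 in WT, and those of megakaryocytes and platelets to 108 to 185 in cKO MED1 and 31.7 to 50.6 in WT, with 1 of 2 tested neutrophil genes and the 1 tested platelet gene called higher. Stromal and endothelial markers summed to 1065 to 1279 in cKO MED1 and 1406 to 1657 in WT, with 1 of 7 called higher and 1 lower. The ranges of NK cell, mast cell and erythroid markers overlapped between groups. Their part in the transporter results was not tested.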

How the data were processed

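Total RNA of 7 cultures was depleted of ribosomal RNA and sequenced in pairs with a stranded kit, per the labels' protocols. The authors deposited 1 table, a signal of read counts divided by 1 size factor per library: 100% of values were whole multiples of their library's smallest step within 1e-06, so whole reads were recovered. The build GRCm38 (mm10) and the tools DESeq2, R 3.4, Subread 1.5.0-p3, featureCounts and STAR 2.4.0a are named per the submitters' processing notes, with the use of strand not given in the sources used here. In GENCODE the exons of the 10 genes overlap those of 0 other genes. The spike-in, at most 0.000383% of reads, was left out.

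Genes were kept by filterByExpr, and reads scaled with TMM factors over these 18062 genes (edgeR 4.0.16). Under R 4.3.3, limma 3.58.1 tested log2(normalised reads + 1) with its trend option. Fold changes of low genes are understated by the added 1. Log2 fold changes are cKO MED1 minus WT. Intervals cover 95%. The fit was tested on simulated data. Partner ratios were compared by an exact permutation test. Exonic length is the union of all isoforms' exons.

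The members and lists were chosen with earlier results of these data known. All 10 members are named. From each list up to 4 tested genes with the smallest adjusted p are named, with the 5 genes most like Slc7a5 and Slc7a11; any gene named beyond that was picked with its values in view. The alternatives run were RLE factors, the authors' size factors, total reads, genes unfiltered or kept at CPM 1 in 3 libraries, a pseudocount of 5, edgeR, DESeq2 1.42.0, limma-voom, replicate number as a block, sex as a covariate, background subtraction, and libraries left out. TMM over all features and the counts per list under each alternative were added after seeing the data.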

Additional observations from a re-analysis of the deposited data

How the results depend on the processing

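As reported, 5065 genes and 4 transporters were called. Apart from the fits that leave out 1 library, the transporter count was within 1.5 times of that in most alternatives. The exceptions were 7 with total reads (6423 genes in all) and 7 with TMM factors over all features (6411 genes). Further exceptions were 0 with sex as a covariate (228 genes) and 1 without cKO MED1 replicates 3 and 4 (2145 genes). Leaving out 1 library gave 1 to 7 transporters and 1556 to 6126 genes, with 7 transporters without cKO MED1 replicate 1 and 1 without cKO MED1 replicate 4 (2812 genes) or without WT replicate 1. The direction reversed in 2 cases: Slc7a11 with total reads (-0.0098) and Slc7a5 with sex as a covariate (0.071). The cause was not tested. The 3 partner ratios kept their direction in each alternative run, in a design too small for a single ratio to pass after adjustment. Whether replicate numbers pair the libraries is not given by the labels. Deviations of same-numbered libraries correlated at 0.515, -0.235 and 0.164. The first is the highest of all pairs across the groups, the lowest being -0.584, so these values do not settle it. With the replicate block 3741 genes and 3 transporters were called, Slc7a6 no longer passing (-0.23, limma adjusted p = 0.0918); cKO MED1 replicate 4 has no WT library of its number. Depth limits Slc7a11 most, with 41 to 102 recovered reads per library.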

Other observations

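Carriers in other membranes and for other nutrients give further values. Of 11 tested mitochondrial amino acid carriers, 4 of them among the 6021 highest genes, 4 were lower in cKO MED1 and 0 higher, with a median log2 fold change of -0.20. Of all tested genes 14.6% were called lower and 13.4% higher. The share called lower was 27.8% among the 6021 highest and 15.2% among the 6020 of middle level. The aspartate and glutamate carrier Slc25a13 was the largest fall, with 230.4, 193, 166 and 181 normalised reads in cKO MED1 replicates 1 to 4, against 722, 559.8 and 494 in WT replicates 1 to 3. All cKO MED1 libraries were far below all WT libraries (log2 fold change -1.61 with SE 0.15, limma adjusted p = 9.1e-05), and it also passed with sex as a covariate, as the 1 call of that list. The ornithine carrier Slc25a15 fell by 0.57 (limma adjusted p = 0.00406), the glutamate carrier Slc25a22 by 0.43 (limma adjusted p = 0.0218) and the serine carrier Sfxn1 by 0.31 (limma adjusted p = 0.0333). Of a list of 15 lysosomal carriers, mostly of amino acids or peptides, 1 was lower and 2 higher, with a median of 0.14. Of the 15, 4 belong to the 6021 highest genes and 10 to the 6020 of middle level. In that middle group 15.2% were called lower and 13.0% higher. The peptide and histidine carrier Slc15a3 fell by 0.61 (limma adjusted p = 0.00348), the nucleoside carrier Slc29a3 rose by 0.43 (limma adjusted p = 0.0118), and Slc38a9, an arginine sensor of mTORC1, had 0.30 and did not pass (limma adjusted p = 0.0933). Slc7a14, the other one called higher, averaged 17.2 ± 9.26 normalised reads in cKO MED1 and 3.61 ± 1.13 in WT, and the level of silent receptor genes over its exons makes up 21.1% to 35.3% of its reads in cKO MED1 libraries and 41.8% to 61.1% in WT libraries. The count of lysosomal carriers called higher was 0 without WT replicate 1, without WT replicate 2 and with sex as a covariate, and 1 with the authors' size factors, total reads or TMM factors over all features.

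Of 19 carriers of other nutrients, 6 were lower and 0 higher, with a median of -0.11. Since 10 of the 19 belong to the 6021 highest genes, of which 27.8% were called lower, this count is near the share at their level. The folate carrier Slc19a1 had 298 ± 33.0 normalised reads in cKO MED1 (SD, n = 4) and 580.2 ± 125 in WT (SD, n = 3), a log2 fold change of -0.94 (limma adjusted p = 0.00223). The vitamin carrier Slc5a6 fell by 0.73 (limma adjusted p = 0.011), the lactate carrier Slc16a1 by 0.72 (limma adjusted p = 0.00804) and the mitochondrial folate carrier Slc25a32 by 0.51 (limma adjusted p = 0.00623). Of 13 transcription factors tied to transporter genes, 9 of them among the 6021 highest genes, 3 were lower and 1 higher, with a median of -0.14. Myc fell by 0.71 (limma adjusted p = 0.00591), Hif1a by 0.59 (limma adjusted p = 0.00404) and Max by 0.39 (limma adjusted p = 0.0126), and Mlxip rose by 0.29 (limma adjusted p = 0.0237). Without cKO MED1 replicates 3 and 4 the counts were 2 lower and 0 higher for the mitochondrial carriers, 4 lower and 1 higher for the other nutrient carriers, and 3 lower and 0 higher for the transcription factors. Over the 21 alternatives the counts lower ran from 1 to 6, from 0 to 8 and from 0 to 4 for these lists in that order.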
